A study of Homo sapiens with 2 samples.

Results

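Promoter methylation was described for 10 genes of one pathway, namely the UBX-domain genes UBXN1, UBXN2A, UBXN2B, UBXN4, UBXN6, UBXN7, UBXN10, UBXN11 and FAF2 together with VCP, the ATPase that UBX-domain proteins bind. The rule that chose the genes uses their names and no measured value, though earlier results of these data were known, and they stand among 18200 protein-coding genes with at least 5 measured promoter sites. All 10 genes had enough sites, between 35 (UBXN4) and 167 (UBXN2A). UBXN8, another member of the family, is given only as a reference value, because the study was built around its promoter. A promoter window ran from 1500 bp upstream to 500 bp downstream of every protein-coding transcript start of a gene in GENCODE release 44, as placed on hg19. The main start is that of the MANE Select transcript.

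The data came from 2 human leukaemia libraries made by MCC-Seq, in which bisulfite-converted DNA is captured with probes and sequenced. One library was of SKNO-1, an acute myeloid leukaemia line that carries the RUNX1-RUNX1T1 fusion gene. The other was of SKNO1-siAE, which is SKNO-1 infected with a lentiviral pRRLcPPT.hPGK vector that encodes siAGF1 oligonucleotides against the fusion mRNA. No control vector is named for SKNO-1, so the vector, the infection and the silencing cannot be told apart. The remaining level of the fusion and the expression of the genes were not analysed here. Each line had 1 library, so the spread between cultures is unknown, and each test below compares 2 libraries and not the conditions. SKNO-1 had 4713346 deposited CpG sites at a mean depth of 17.7 reads, and SKNO1-siAE had 4694016 sites at 17.5 reads. Each strand of a CpG counts as a site, and the 3168726 sites that both libraries covered with 5 or more reads are the shared sites. The level of a site is its methylated reads over all its reads, on a scale from 0 to 1. A difference is the level in SKNO-1 minus that in SKNO1-siAE. SKNO-1 was the less methylated library as a whole, with a mean of 0.587 over the shared sites and 0.655 in SKNO1-siAE.

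VCP pulls ubiquitin-tagged proteins out of membranes and complexes so that they can be degraded or recycled. The UBX domain, which is folded like ubiquitin, docks on VCP, and the proteins that carry it lead VCP to particular substrates and membranes, among them the endoplasmic reticulum (ER), where VCP drives ER-associated degradation (ERAD). Promoters of genes used in every cell usually hold dense CpGs that are free of methylation, while the sequence that flanks them is often methylated.

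A part of the only region called in these promoters, that of UBXN2A, is shown for its difference between the libraries. UBXN10 is shown because it was partly methylated before its start in both libraries, and VCP as an example of a promoter that was free of methylation in both. All are from GRCh37, are written 5′ to 3′ and have their CpGs in capitals. The UBXN2A stretch, chr2:24162225-24162409 on the + strand, lies just upstream of a 5′ exon of the UBXN2A-202 transcript, in an intron. It holds 9 of the 40 sites of the region, and its level was 0.0884 in SKNO-1 and 0.948 in SKNO1-siAE. The UBXN10 sequence, chr1:20512339-20512588 on the + strand, ends at the base before the main start, and the short stretch below it, chr1:20512497-20512518, is a part of it whose 6 sites were at 0 in both libraries. The VCP sequence, chr9:35072666-35072915 on the - strand, ends at the base before the start farthest upstream and had a level of 0.0045 in SKNO-1 and 0.0021 in SKNO1-siAE over 30 sites.
UBXN2A upstream of the exon: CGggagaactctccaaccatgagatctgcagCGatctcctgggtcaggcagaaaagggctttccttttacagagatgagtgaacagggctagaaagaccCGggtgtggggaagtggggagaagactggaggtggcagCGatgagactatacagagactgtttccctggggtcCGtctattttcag
UBXN10 upstream: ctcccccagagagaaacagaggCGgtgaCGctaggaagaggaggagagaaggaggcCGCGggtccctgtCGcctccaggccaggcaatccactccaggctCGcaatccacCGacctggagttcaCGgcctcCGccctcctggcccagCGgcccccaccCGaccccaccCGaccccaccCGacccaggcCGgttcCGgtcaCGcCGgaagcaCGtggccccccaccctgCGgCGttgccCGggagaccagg
UBXN10 unmethylated stretch: CGaccccaccCGaccccaccCG
VCP upstream: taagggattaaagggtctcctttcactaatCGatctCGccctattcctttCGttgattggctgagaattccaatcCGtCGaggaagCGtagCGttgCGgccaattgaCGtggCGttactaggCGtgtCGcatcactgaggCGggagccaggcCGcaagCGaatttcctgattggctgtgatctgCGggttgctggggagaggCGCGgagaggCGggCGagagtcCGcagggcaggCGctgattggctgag

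Around their main starts, 9 of the 10 genes had almost no methylation in either library. Within 250 bp of the main start, a width chosen after the profiles were seen, UBXN10 was the exception, at 0.523 in SKNO-1 and 0.609 in SKNO1-siAE. The other 9 genes were under 0.1 in both libraries, as were 57.2% of the 14350 protein-coding genes with 5 or more sites there. The highest of the 9 was UBXN2A, at 0.0216 in SKNO-1 and 0.0135 in SKNO1-siAE. UBXN1 had 0 methylated reads of 717 in SKNO-1 and 0 of 920 in SKNO1-siAE, which allows levels of up to 0.00418 and 0.00326. UBXN4 had only 5 sites there, with 0 of 42 reads methylated in each library, which allows a level of up to 0.0714. In such sums over sites a read counts at each site it covers, so the real limits for both genes are higher. UBXN8, the reference, was at 0.430 in SKNO-1 and 0.00328 in SKNO1-siAE over 58 sites. The 10 genes had 391 sites within 250 bp of a main start. Of these, 1 was called higher and 1 lower in SKNO-1, beside 2.73% higher and 8.19% lower of the sites this close to a main start of any protein-coding gene, and both lie in UBXN10. A site is called by the rule on single sites given farther on.

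Over the whole windows, the mean levels in SKNO-1 ran from 0.0200 in UBXN2A, through 0.0479 in UBXN7 and 0.117 in UBXN1, to 0.414 in UBXN10 and 0.640 in UBXN4. In SKNO1-siAE, UBXN7 was lowest at 0.0787 and UBXN1 next at 0.0822, and UBXN10 at 0.502 and UBXN4 at 0.597 were again highest. UBXN2A was the gene that changed its place most, from the lowest of the 10 to the fourth highest, at 0.245. Neighbours in this order whose shares of pooled methylated reads had overlapping 95% Wilson intervals were UBXN7 and UBXN1, UBXN11 and UBXN2B, and UBXN6 and UBXN10, all in SKNO1-siAE. The order follows site means, and pooled shares ran against it in places. In SKNO-1, UBXN11 stood above FAF2 by site means, but its pooled share was 0.184 and that of FAF2 0.279. Intervals that do not overlap therefore do not settle the order. The intervals cover counting error only, and too narrowly. A read is counted at each site it covers, and the reads carry no molecular identifiers. The high mean of UBXN4 came from the methylated sequence upstream of its start, where 18 sites 500 to 1500 bp upstream stood at 0.945 in SKNO-1 and 0.954 in SKNO1-siAE.

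UBXN2A was the only one of the 10 genes whose promoter mean differed by at least 0.2, and it was lower in SKNO-1. That is 1 of 10 genes, where 14.2% of the 18200 protein-coding genes were lower by at least 0.2, and 0 of 10 were higher, where 2.85% of all genes were. Both shares are close to those over all genes. With the strands of a CpG merged UBXN2A was at -0.193, under that limit, and with each library's own sites UBXN4 was at 0.230, past it in the other direction. The differences of the 10 genes ran from -0.225 (UBXN2A) to 0.0472 (UBXN11), 5 of the 10 were above 0, and their median was -0.0057, with -0.0116 over all genes. Differences this small turned with the way of averaging. Pooled reads gave 0.0473 in UBXN2B, 0.0839 in UBXN6 and -0.062 in VCP, against -0.0207, -0.0367 and 0.0143 from the site means, and each library's own sites gave 0.0079 in UBXN10, -0.0012 in UBXN11 and -0.021 in FAF2, against -0.0885, 0.0472 and 0.00923. UBXN8, at 0.449 in SKNO-1 and 0.153 in SKNO1-siAE, differed by 0.296 in the opposite direction to UBXN2A. Its difference was 0.473 at sites with at least 10 reads and 0.413 without the 33 of its 111 sites that lie in the window of GSR.

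**Figure D1:**
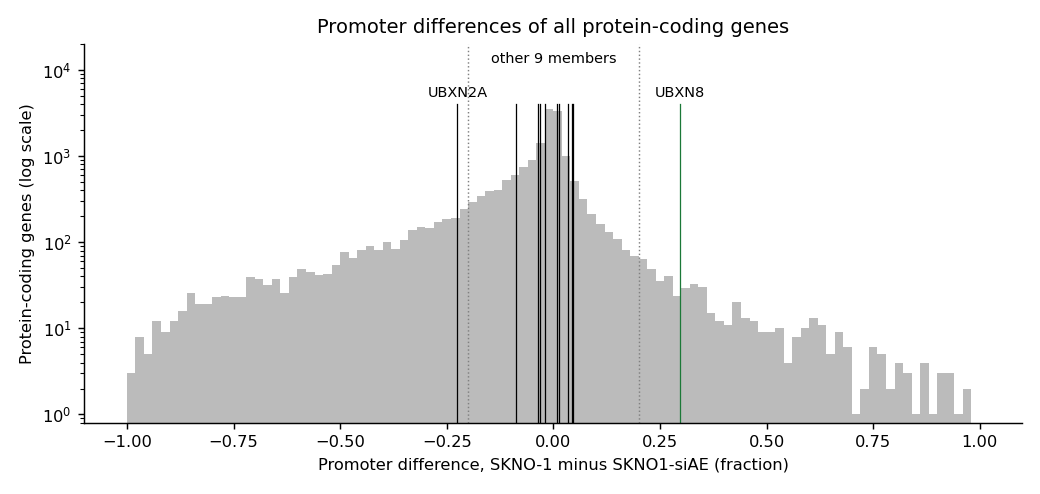
Number of protein-coding genes (log scale) by promoter difference, SKNO-1 minus SKNO1-siAE, with black lines at the 10 genes, a green line at UBXN8 and dotted lines at 0.2 in either direction. UBXN2A lies at -0.225 among the genes lower in SKNO-1, UBXN8 lies at 0.296, and the other 9 genes lie between -0.0885 and 0.0472.

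Site by site, most positions did not differ. Of the 829 promoter sites of the 10 genes, 713 (86.0%) differed by less than 0.2 between the libraries, and 578 (69.7%) were under 0.1 in both. Calling a site took a difference of 0.2 or more and a Fisher's exact test with p under 0.05 once adjusted by Benjamini-Hochberg for every shared site of the genome. By this rule SKNO-1 was higher at 16 sites (1.93%) and lower at 56 (6.76%), beside 3.91% and 10.4% of all protein-coding promoter sites. With Bonferroni adjustment in its place, 0 sites were called higher and 32 lower. None of the higher calls named for a gene here holds under it, nor do the leading lower calls of UBXN2B and UBXN6. UBXN2A held 40 of the 56 lower sites, and without it 16 of 662 sites (2.42%) were lower. A region, a run of 5 or more sites with gaps of no more than 300 bp, was called in UBXN2A and in none of the other 9 genes. Among all protein-coding genes, 7.14% had a called region lower in SKNO-1 and 1.77% had one higher.

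UBXN2A encodes an adaptor with a SEP and a UBX domain, a relative of the VCP cofactor encoded by NSFL1C. The gene (ENSG00000173960, chromosome 2, 24150155 to 24227779, + strand) has 2 coding starts in this annotation. At the start farther upstream, that of UBXN2A-202 at 24150182, 82 sites shared with the window of ATAD2B on the other strand were at 0 in SKNO-1 and 0.0096 in SKNO1-siAE. At the main start, that of UBXN2A-201 at 24163333, 85 sites were at 0.0393 in SKNO-1 and 0.472 in SKNO1-siAE, a difference of -0.432. This difference lay in 1 region of 583 bp, chr2:24162136-24162718, from -1197 to -615 bp of the main start.

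In SKNO-1 the region was almost free of methylation, and in SKNO1-siAE it was almost fully methylated. Its 40 sites averaged 0.0635 in SKNO-1 and 0.983 in SKNO1-siAE, a difference of -0.920. The methylated reads of SKNO-1 numbered 62 of 1122, a share of 0.0553 with a 95% Wilson interval of 0.0433 to 0.0702. Those of SKNO1-siAE numbered 815 of 836, a share of 0.975 (0.962 to 0.984). By site, 33 of the 40 were under 0.1 in SKNO-1 and 38 of the 40 were over 0.9 in SKNO1-siAE, and 39 of the 40 were called lower in SKNO-1. The Mann-Whitney U test across site levels (n = 40 sites in each library) gave p = 5.81e-16, or 1.84e-09 after Bonferroni adjustment for every shared site. Neighbouring sites are read in the same fragments, so this p treats as separate what is partly 1 measurement. Of the 2406 regions called lower in SKNO-1 over the genome, 309 had a difference at least as large. The site with the smallest adjusted p, 24162617 on the - strand, had 0 of 46 reads methylated in SKNO-1 and 26 of 26 in SKNO1-siAE (Fisher's exact test, adjusted p = 1.14e-17).

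**Figure D2:**
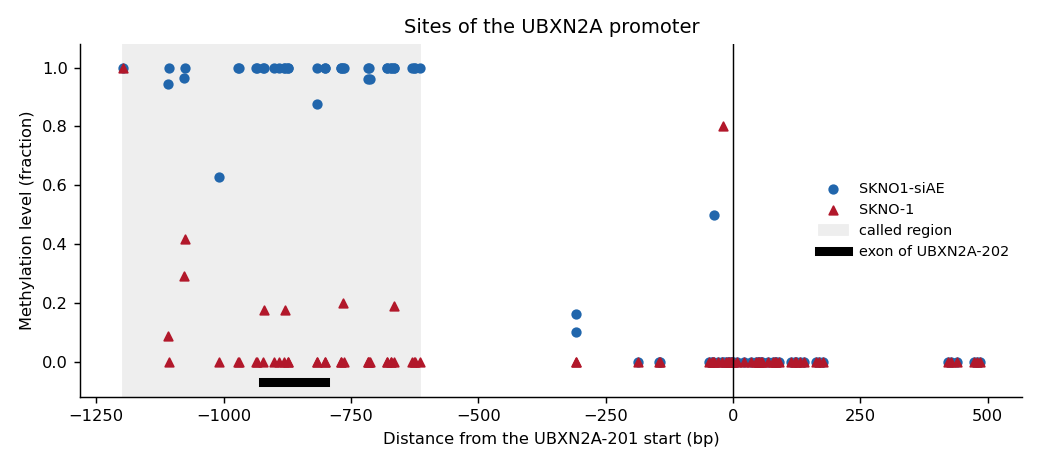
Methylation level (fraction of reads) of the UBXN2A promoter sites by distance in bp from the UBXN2A-201 start, with SKNO-1 as red triangles, SKNO1-siAE as blue circles, the called region shaded and the exon of UBXN2A-202 as a black bar. Inside the region all but 1 of the SKNO-1 sites lie below the SKNO1-siAE sites, and downstream of it the libraries overlap at or near 0 except at single sites.

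The difference ran through the whole region apart from its first site. That site, at 24162136, was methylated in 19 of 19 reads in SKNO-1 and 23 of 23 reads in SKNO1-siAE, and the nearest shared site upstream of it lies 11483 bp away. The next 9 sites, in the sequence shown above, were at 0.0884 in SKNO-1 and 0.948 in SKNO1-siAE. The 11 sites in the exon of UBXN2A-202, at 24162410 to 24162532, were at 0.0321 and 0.989. The strands gave like values, with 0.0983 on the + strand and 0.0350 on the - strand in SKNO-1, and 0.972 and 0.993 in SKNO1-siAE.

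Nearer to the main start of UBXN2A both libraries were free of methylation. After a gap of 306 bp with no shared site, 17 sites between the region and the start were at 0.0471 in SKNO-1 and 0.0447 in SKNO1-siAE, and the first 54 sites downstream were at 0.00682 and 0.0218. Where in the gap the level of SKNO1-siAE fell from that of the region cannot be seen here. Without the region the difference of the gene was -0.0059.

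UBXN2A and UBXN8 differed from each other in more than direction. In UBXN8, 50 of the 58 sites within 250 bp of the main start lay between 0.1 and 0.9 in SKNO-1, with a lowest level of 0, a median of 0.482 and a highest level of 0.841. In the UBXN2A region 6 of 40 sites lay between 0.1 and 0.9 in SKNO-1, and 2 of 40 in SKNO1-siAE. The UBXN2A interval was set by its difference in these data and the UBXN8 interval by distance, so the counts are not of like intervals. The UBXN8 difference spanned the start, with a called region of 48 sites from -133 to 198 bp at 0.468 in SKNO-1 and 0.00397 in SKNO1-siAE. It also lay upstream, where a run of 19 sites from -509 to -181 bp, not called as a region, was at 0.449 and 0.0273. In UBXN2A the last shared site of the region was at -615 bp, and the sites around the start were near 0 in both libraries. The 3 protein-coding genes, of those with at least 20 sites, whose pair of mean levels was nearest to that of UBXN2A were ARHGEF6 (0.0238 in SKNO-1 and 0.243 in SKNO1-siAE), CENPA (0.0285 and 0.246) and DCUN1D4 (0.0144 and 0.231).

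The promoter of UBXN10, whose product is a VCP adaptor of the cilium, was partly methylated in both libraries. The gene starts at 20512589 on chromosome 1, on the + strand, and 15 of its 53 sites also lie in the window of PLA2G2C. It averaged 0.414 in SKNO-1 and 0.502 in SKNO1-siAE. Within 250 bp of the start, all 30 sites lay upstream. Of their reads, SKNO-1 had 194 of 337 methylated (0.576, Wilson interval 0.522 to 0.627) and SKNO1-siAE had 180 of 295 (0.610, 0.553 to 0.664). The intervals overlap. Within this stretch the levels changed sharply at the same place in both libraries, as the following values for parts chosen after they were seen show. From -227 to -118 bp, 14 sites were at 0.915 in SKNO-1 and 0.918 in SKNO1-siAE. From -92 to -71 bp, in the short stretch printed above, 6 sites had 0 of 54 methylated reads in SKNO-1 and 0 of 59 in SKNO1-siAE. Taken as separate reads, these counts allow levels of up to 0.0556 and 0.0508. The same reads recur at sites this close together, so the real limits are higher.

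The libraries differed on either side of that stretch of UBXN10, in both directions. Before the start, from -62 to -22 bp, 8 sites were at 0.290 in SKNO-1 and 0.550 in SKNO1-siAE, with 1 site called in each direction. Downstream, from 287 to 355 bp, 5 sites on the + strand were at 0.274 in SKNO-1 and 1 in SKNO1-siAE, where 61 of 61 reads were methylated. The site with the smallest adjusted p lower in SKNO-1 lies there, at 303 bp, with 0 of 17 reads methylated in SKNO-1 and 13 of 13 in SKNO1-siAE (Fisher's exact test, adjusted p = 3.02e-07). The opposite was seen farther upstream at -909 bp, with 13 of 16 methylated reads in SKNO-1 and 0 of 13 in SKNO1-siAE (Fisher's exact test, adjusted p = 0.000177). In all, 4 sites of UBXN10 were called higher and 6 lower, and no region was called. Without the sites shared with PLA2G2C, the difference of UBXN10 went from -0.0885 to 0.0268.

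The ER-anchored adaptors UBXN4 and FAF2, both of which take part in ERAD, had methylated upstream flanks that gave way to unmethylated starts. In UBXN4 (chromosome 2, + strand, main start 136499425) the 35 sites averaged 0.640 in SKNO-1 and 0.597 in SKNO1-siAE. Of these, 3 were called higher in SKNO-1 and 0 lower. The leading site, at -464 bp, had 17 of 17 methylated reads in SKNO-1 and 8 of 37 in SKNO1-siAE (Fisher's exact test, adjusted p = 7.49e-07). In FAF2 (chromosome 5, + strand, main start 175875386) the 111 sites averaged 0.213 and 0.204, and 29 sites 500 to 1500 bp upstream were at 0.795 in SKNO-1 and 0.738 in SKNO1-siAE. The leading FAF2 site, at -1178 bp, had 33 of 33 methylated reads in SKNO-1 and 11 of 28 in SKNO1-siAE (Fisher's exact test, adjusted p = 1.23e-06), and 3 sites in all were called higher. In both genes the called sites lay in the methylated flank or at its inner edge, and the start itself was near 0 in both libraries. Shares of pooled reads differed by more than the site means in FAF2, by 0.117 against 0.00923.

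UBXN7 links VCP to cullin-RING ubiquitin ligases and had one of the least methylated promoters of the group. Its 105 sites (chromosome 3, - strand, main start 196159298) averaged 0.0479 in SKNO-1 and 0.0787 in SKNO1-siAE. As in UBXN2A, the called sites, 4 in number, were all lower in SKNO-1 and all lay upstream. The leading site, at -971 bp, had 1 methylated read of 25 in SKNO-1 and 17 of 18 in SKNO1-siAE (Fisher's exact test, adjusted p = 3.43e-08), and farther out, 1000 to 1500 bp upstream, 4 sites were at 1 in both libraries. Between 500 and 1000 bp upstream, 5 sites were at 0.0631 in SKNO-1 and 0.622 in SKNO1-siAE, and no region was called. Reads in the 5 Mb bin that holds UBXN7 stood at 1.64 times the genome's ratio of SKNO-1 to SKNO1-siAE, and at 1.09 times in its own window, and their part in these values was not tested.

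UBXN1, UBXN2B and UBXN6 are adaptors of the cytosol, of which UBXN1 also binds ubiquitin, UBXN2B is close to UBXN2A in sequence and serves the Golgi and the ER, and UBXN6 acts with VCP on endosomes and lysosomes. UBXN1 (chromosome 11, - strand, main start 62446545) averaged 0.117 in SKNO-1 and 0.0822 in SKNO1-siAE over 95 sites, with 1 site called higher and 0 lower. At the main start alone its 72 sites were at 0.0128 and 0.0148, so the difference of the whole window came from the start inside the gene of UBXN1-214 and turned to -0.002 without it. That site, 1034 bp downstream of the main start, had 8 of 8 methylated reads in SKNO-1 and 2 of 7 in SKNO1-siAE (Fisher's exact test, adjusted p = 0.0434). UBXN2B (chromosome 8, + strand, main start 59323920) averaged 0.168 and 0.189 over 70 sites, with 0 called higher and 2 lower, while its pooled reads stood the other way at 0.169 and 0.122. The leading UBXN2B site, at -889 bp, had 2 of 8 methylated reads in SKNO-1 and 12 of 12 in SKNO1-siAE (Fisher's exact test, adjusted p = 0.00627). Thus the close relative of UBXN2A showed no block of sites like the one in UBXN2A, and its 12 sites 500 to 1500 bp upstream were at 0.887 in SKNO-1 and 1 in SKNO1-siAE.

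UBXN6 (chromosome 19, - strand, main start 4457791) averaged 0.338 in SKNO-1 and 0.374 in SKNO1-siAE over 64 sites, and the share of its pooled reads was higher in SKNO-1, at 0.550 against 0.466. Its main start had 33 window sites at 0.0303 and 0.0227. The windows of the 3 starts inside the gene were largely methylated in both libraries. That of UBXN6-207 had 14 sites at 0.977 and 0.930, and that of UBXN6-202 had 26 at 0.788 and 0.865. That of UBXN6-209 had 31 at 0.665 and 0.749. The 14 sites also count in the other inner windows, so these values are not separate. The start of UBXN6-207 is at 4454090, and the nearest of its sites lies upstream at 4455061. The level at that start itself was thus not measured. All 4 of its called sites were lower in SKNO-1 and lay inside the gene. The leading one, 1093 bp downstream of the main start, had 0 of 9 methylated reads in SKNO-1 and 11 of 15 in SKNO1-siAE (Fisher's exact test, adjusted p = 0.00524). The read ratio of the 5 Mb bin of UBXN6 was 0.687 relative to the genome, and its part in these values was not tested.

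UBXN11, which was first described as a partner of Rnd GTPases, had a start that was free of methylation and another, farther upstream, that was not. At the main start (chromosome 1, - strand, 26633127), 47 sites were at 0.0088 in SKNO-1 and 0.0046 in SKNO1-siAE. At the start of UBXN11-204, at 26644854, 18 sites were at 0.819 and 0.659, and 11 of the 65 sites of the gene lie in the window of CD52, the gene of a leukocyte surface antigen. All 4 called sites of UBXN11 were higher in SKNO-1 and lay in the window of this upstream start. Some of them, the leading one included, lie in the part shared with CD52. The leading one, 454 bp downstream of it, had 13 of 19 methylated reads in SKNO-1 and 0 of 18 in SKNO1-siAE (Fisher's exact test, adjusted p = 0.00016). A run of 11 sites there was at 0.701 in SKNO-1 and 0.353 in SKNO1-siAE and was not called as a region. With the main start alone, the difference of UBXN11 was 0.0042. Without the sites shared with CD52 it went from 0.0472 to 0.0144.

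VCP itself (chromosome 9, - strand, main start 35072622) was unmethylated at its start and methylated farther upstream in both libraries. Its 64 sites averaged 0.213 in SKNO-1 and 0.199 in SKNO1-siAE, and its pooled reads stood the other way at 0.225 and 0.287. Within 250 bp of the main start SKNO-1 had 3 methylated reads of 642 and SKNO1-siAE had 0 of 441, which allows a level of up to 0.0068. As these reads are summed over sites, the real limit is higher. Upstream, at 1000 to 1500 bp, 12 sites were at 0.986 and 0.910. The 1 called site, at -1270 bp, had 11 of 11 methylated reads in SKNO-1 and 4 of 9 in SKNO1-siAE (Fisher's exact test, adjusted p = 0.049).

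By distance from the nearest start, sites 1000 to 1500 bp upstream were mostly methylated and sites next to a start mostly not, in both libraries. Only 5 of the 10 genes had sites 1000 to 1500 bp upstream and 7 had sites 500 to 1000 bp upstream. UBXN10 was at 0 in both libraries over 2 sites in the first interval and at 0.127 in SKNO-1 and 0 in SKNO1-siAE over 10 sites in the second. In the second interval UBXN2A at 0.0219 and UBXN7 at 0.0631 were also low in SKNO-1. Sites 1000 to 1500 bp upstream averaged 0.795 in SKNO-1 and 0.896 in SKNO1-siAE, or 0.901 and 0.890 without the 6 sites of UBXN2A, and sites in the last 250 bp before a start 0.108 and 0.103. The largest gap was 500 to 1000 bp upstream, at 0.334 and 0.823. Of the 73 sites there 34 belong to UBXN2A, and without it the values were 0.607 and 0.673. Genes with more sites weigh more in these means.

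Inside the genes, outside every promoter window, the largest difference was that of UBXN10. Over 37 sites its gene body was at 0.456 in SKNO-1 and 0.844 in SKNO1-siAE, a difference of -0.387, with 0 sites called higher and 15 lower. SKNO-1 had 374 methylated reads of 763 (0.490, Wilson interval 0.455 to 0.526), and SKNO1-siAE had 831 of 939 (0.885, 0.863 to 0.904). The last 8 sites, 8512 to 8708 bp downstream of the start, were at 0.158 and 0.890, with 7 called lower. UBXN10 was the only one of the 10 genes with a body difference of at least 0.2, and 1 of 10 is near the share over all genes, since 10.7% of 16769 were lower and 2.42% higher by that much. Bodies of UBXN2B (0.966 and 0.988), UBXN6 (0.912 and 0.957), UBXN7 (0.927 and 0.922) and FAF2 (0.883 and 0.833) were highly methylated in both libraries. The body of UBXN2A was at 0.173 and 0.199 over 31 sites, so its promoter region had no counterpart of like size there. UBXN1 had only 2 body sites.

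The strands of a CpG give a measure of precision that does not use the cell lines. Among 248 promoter CpGs of the 10 genes with both strands measured, the strands differed by at least 0.2 at 17 in SKNO-1 and at 18 in SKNO1-siAE. The libraries, averaged over strands, differed by that much at 33, and 17 of these lie in UBXN2A. Over the other 9 genes the libraries differed by that much at 16 CpGs, and the strands at 16 in SKNO-1 and at 16 in SKNO1-siAE. A mean over strands carries less counting error than a single strand, so these counts are not like measures.

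Most other genes that work with VCP were close to equal in the libraries, and a few of the cofactors were lower in SKNO-1 by less than 0.2. The list held 3 further UBX-domain genes, 14 VCP cofactors and enzymes and 25 ERAD genes, and 40 of the 42 had enough sites; RNF5 and BAG6 had 0 shared sites. None of the 40 promoters differed by at least 0.2 in either direction, beside 14.2% lower and 2.85% higher of all protein-coding genes, and their median difference was -0.002. At sites with at least 10 reads, tried after the data were seen, 2 of them were lower by that much, SPRTN at -0.221 and ZFAND2B at -0.294. The UBX-domain genes FAF1 (0.0067 and 0.0095) and NSFL1C (0.0046 and 0.0071) were free of methylation in both libraries, whereas ASPSCR1 was at 0.522 in SKNO-1 and 0.514 in SKNO1-siAE. The 14 cofactors had a median difference of -0.0147 and the 23 measured ERAD genes one of -0.0004. The lowest differences were -0.1496 in SPRTN, which encodes a protease for DNA-protein crosslinks, -0.1462 in YOD1, a deubiquitinase, and -0.1443 in ZFAND2B, and the highest was 0.0644 in HERPUD1, an ERAD gene. A region was called in 2 of the 40, SPRTN and YOD1, both lower in SKNO-1, beside the 7.14% of all genes with such a region. These genes were named after their values were seen.

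The promoter sequences were searched for TGTGGT, a motif bound by RUNX proteins, and for its CpG form TGCGGT, on both strands of the 1500 bp upstream of the main start. TGTGGT was found in 7 of the 10 genes and in 56.0% of 18918 promoters, and TGCGGT in 4 of 10 and in 27.9%. The 583 bp of the UBXN2A region held neither, while the same interval of all promoters held TGTGGT in 30.2% and TGCGGT in 11.1%. The UBXN2A interval had 24 CpGs, where the median promoter had 11, and 16.6% of promoters had as many or more. A match is a description of the letters, and its absence says nothing about binding.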

How the data were processed

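Per the labels and the study's methods, the authors captured bisulfite-converted DNA with SeqCap Epi probes, sequenced paired reads, trimmed them (cutadapt 1.4.2 is named in the submitters' processing notes) and aligned them to hg19 with BSMAP 2.73. The authors deposited counts of methylated and unmethylated reads per CpG cytosine and strand, without normalization, and both files held only sites with at least 5 reads. From these counts, levels were computed at the sites that both libraries covered with 5 or more reads. Sites were tested with a 2-sided Fisher's exact test and Benjamini-Hochberg adjustment over all shared sites, which compares 2 libraries. Regions needed at least 5 sites, gaps of at most 300 bp, a difference of at least 0.2 smoothed over 5 sites, and a 2-sided Mann-Whitney U test (normal approximation) with Bonferroni adjustment. They stand in for the Metilene calls of the study. Median depth at shared sites was 16 reads in SKNO-1 and 15 in SKNO1-siAE, so single sites are imprecise. A count of 0 allows a level of up to 3 reads over all reads. Reads summed over sites count a read at each site it covers. Limits from such sums are therefore too low and their Wilson intervals too narrow.

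Members and lists were chosen with earlier results of these data known. Named were, for each gene, the site with the smallest adjusted p in each direction that was called, the called regions, pathway genes past 0.2, genes sharing window sites, and the 3 genes nearest to UBXN2A in levels. Other names were chosen after values were seen. Starts came from GENCODE release 44 on GRCh37, and all 2663353 positions checked fell on a CpG of that genome. For UBXN2A, 1 sequence is not reported here. The tools were pyfaidx 0.9.0.4 and numba 0.67.0, with matplotlib 3.10.9 for the plots, pandas 2.3.3, and scipy 1.17.1 on numpy 2.4.6 and python 3.11.15.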

Additional observations from a re-analysis of the deposited data

How the results depend on the processing

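Over 100 alternative values for the 10 genes, 62 stayed within the counting error, 37 moved beyond it and 1 changed the direction of a gene past 0.2. Of the 62, 25 equalled the main value because the alternative kept the same sites, which shows no stability. In 9 of these 25, leaving out the UBXN2A region removed no site of the other 9 genes. The 1 value that changed direction was UBXN2A within 250 bp of its main start, an interval added after the data were seen, at 0.0081. The values of UBXN2A under the others ran from -0.4324 for the main start alone to -0.0059 for 500 bp on either side, since the region lies outside that window. The count of genes lower by at least 0.2 fell from 1 to 0 with merged strands (UBXN2A at -0.1933) and with a minimum difference of 0.3. The median difference of the 10 genes, -0.0057, was 0.0496 from pooled reads, 0.0046 with 500 bp on either side and 0.0118 without sites of other genes' windows, so its sign is not settled. With each library's own sites UBXN4 was at 0.2301. Of the VCP pathway genes, 2 were lower by 0.2 at sites with at least 10 reads (SPRTN and ZFAND2B), and 3 were lower by 0.1 (SPRTN, YOD1 and ZFAND2B), both tried after the data were seen. Bonferroni adjustment of the sites left 0 higher and 32 lower. The called regions, 1 lower and 0 higher, were as many under every alternative that was run. The causes were not tested. No paired analysis was possible because each line had 1 library, and for the same reason no library could be left out. Depth limits single sites to coarse levels, and 2 libraries say nothing of the spread between cultures.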
